A study of Mus musculus with 8 samples.

Results

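The genes described here were 10 glycosyltransferases of the Golgi: the sialyltransferases St6gal1, St3gal1, St3gal2, St3gal4, St3gal6 and St8sia4, and the enzymes Gcnt1, Gcnt2, B4galt1 and Xylt2. They were selected by name from 18193 genes with a probe set of a single symbol on an Affymetrix mouse genome array, with measured values of these same arrays in view. The values that led to the choice were the difference of St6gal1 between LPS and control, of Xylt2 between menthol and control, and of Gcnt1 between LPS and menthol, and they are given as descriptions with no p-value. Another comparison of St6gal1, Xylt2 or Gcnt1 that shares a group of arrays with that gene's value is a description too. Its p-value, where printed, is not free of the choice. The other tests of these genes, and the counts of genes that passed them, likewise describe a list that was not chosen blind to the data. The list also holds genes that did not pass in any comparison, namely St3gal2, St3gal4 and St3gal6.

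The cells were RAW 264.7, an established line of mouse macrophages, and the 8 arrays formed 4 groups of 2: control treatment, menthol given for 1 h (M), bacterial lipopolysaccharide at 100 ng/ml for 6 h (LPS), and menthol for 1 h followed by the same LPS treatment (LPS+M). The study asked how menthol alters the transcripts of macrophages at rest and after LPS. The labels give no dose of menthol and no harvest time for the control and M groups. A difference in time and the LPS treatment therefore cannot be told apart wherever LPS or LPS+M is compared with control or M. In the labels the arrays are biological replicates, but separate cultures are not stated, so p-values reflect array-to-array spread alone, and this may be technical. RAW 264.7 is a single transformed line. All 10 macrophage markers checked, from Cd68 to Mpeg1, had a mean above the filter described below, whereas none of the 19 measured markers of T cells, B cells, epithelium and fibroblasts did. Cd3d, Cd3e, Cd3g, Cd4, Cd8a, Cd79a, Cd79b, Ms4a1, Pax5, Epcam, Cdh1, Krt8, Krt18, Krt19, Col1a1, Col1a2, Col3a1, Pdgfra and Dcn lay between 1.69 and 3.83 as means over the arrays. The medians of the arrays ranged from 2.99 to 3.04 and arrays of the same group correlated at 0.9988 to 0.9994 over the probe sets (which are not replicates).

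Glycosyltransferases of the Golgi build the sugar chains of glycoproteins, glycolipids and proteoglycans as these pass to the cell surface. Sialyltransferases finish many of these chains with sialic acid, a negatively charged sugar that is read by Siglec receptors of immune cells and that masks the galactose below it. Branching enzymes decide how many ends a chain offers for such a finish, and a xylosyltransferase starts the glycosaminoglycan chains of proteoglycans. The arrays measured transcripts, and neither enzyme activity nor surface sugars were measured here.

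Levels are log2 signals of a probe set after GC-RMA, which adjusts for background by probe GC content, so a difference of 1 is a 2-fold change. The brightest probe set on average stood for a gene, and the 8908 genes for which it exceeded 4.84, the average over the whole array, were tested together with limma. A gene was called, and is written as having risen or fallen, at a Benjamini-Hochberg adjusted p under 0.05 over all tested genes and a change of at least 1.5-fold, which is 0.58 on the log2 scale. Values after ± are standard errors of a log2 difference from the fit over all 8 arrays, with 2 arrays a group. All 10 genes passed the filter on the mean. They had 27 probe sets, of which 13 lay above the filter and 14 below it. With 2 arrays a side, the smallest two-sided p of an exact permutation test is 0.333, so none was run. In a bulk culture, fewer cells of a kind and less RNA per cell cannot be told apart.

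The starts of 4 genes are shown because they include the 3 that were lower after LPS in both settings and 1 of the 2 that were higher, so that a reader can see how the sequences next to these transcripts differ. Each is 250 bases before and 50 bases from a transcription start of RefSeq, build GRCm38.p6, written along the gene's strand. Capitals mark GC boxes (GGGCGG) and TATA boxes (TATAAA) on either strand. The windows are chr16:23224490-23224789 on the plus strand for St6gal1, the first of its 3 starts, chr1:95667545-95667844 on the minus strand for St8sia4, chr19:17372795-17373094 on the minus strand for Gcnt1, the first of its 3 starts, and chr11:94677444-94677743 on the minus strand for Xylt2.
St6gal1: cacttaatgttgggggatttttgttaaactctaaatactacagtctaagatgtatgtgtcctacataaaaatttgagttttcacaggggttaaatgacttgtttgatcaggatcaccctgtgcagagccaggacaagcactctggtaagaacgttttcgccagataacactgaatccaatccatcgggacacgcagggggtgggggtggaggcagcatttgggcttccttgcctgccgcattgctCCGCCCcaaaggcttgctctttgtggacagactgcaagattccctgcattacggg
St8sia4: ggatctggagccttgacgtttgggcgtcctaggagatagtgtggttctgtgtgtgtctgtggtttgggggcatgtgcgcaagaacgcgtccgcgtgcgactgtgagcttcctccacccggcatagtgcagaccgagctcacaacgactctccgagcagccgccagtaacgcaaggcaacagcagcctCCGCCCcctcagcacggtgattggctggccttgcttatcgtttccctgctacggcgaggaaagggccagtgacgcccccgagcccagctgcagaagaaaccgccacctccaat
Gcnt1: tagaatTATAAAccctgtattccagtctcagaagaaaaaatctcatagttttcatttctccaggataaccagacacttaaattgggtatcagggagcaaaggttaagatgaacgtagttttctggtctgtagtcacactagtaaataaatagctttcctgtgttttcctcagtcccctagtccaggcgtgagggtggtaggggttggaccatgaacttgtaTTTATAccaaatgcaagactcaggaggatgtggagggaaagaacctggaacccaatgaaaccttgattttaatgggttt
Xylt2: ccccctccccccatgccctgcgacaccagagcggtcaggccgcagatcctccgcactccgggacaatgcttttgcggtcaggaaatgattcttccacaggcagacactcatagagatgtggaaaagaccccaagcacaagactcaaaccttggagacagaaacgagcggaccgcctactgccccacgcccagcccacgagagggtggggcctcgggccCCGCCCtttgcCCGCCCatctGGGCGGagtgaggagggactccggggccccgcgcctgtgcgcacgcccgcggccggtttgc

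The St6gal1 and St8sia4 windows each held 1 GC box, the Xylt2 window held 3, and the Gcnt1 window held none but had 2 TATA boxes. GC boxes occurred in 35.7% and TATA boxes in 13.6% of all 32851 windows of the same length. Motifs of factors that act after LPS were searched as well on both strands, in the 15 windows of the 8 genes that the sequence table holds (St3gal1 and St3gal2 are named only). The NF-kB motif (4.51% of all windows) matched once, in the second start of St3gal6. AP-1 (TGANTCA, 7.81% of all windows) matched once, in the third start of St6gal1. The interferon response element (GAAANNGAA, 8.56%) and the cAMP response element (TGACGTCA, 1.79%) matched in none of the 15 windows. A match is a run of letters and not a measured binding site, the motifs do not overlap each other in the printed windows, and which start these cells used was not measured.

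The sialyltransferases differed in direction between LPS and control. St6gal1 and St8sia4 were lower in LPS than in control, St3gal1 was higher, and St3gal2, St3gal4 and St3gal6 were not called. Of the other 4 genes, Xylt2 rose and Gcnt1 fell, while Gcnt2 and B4galt1 were not called. In all, 2 of the 10 genes were called higher and 3 lower, with the value of St6gal1 among those that led to the choice. Over all tested genes, 3.17% were called higher and 2.96% lower in LPS against control. The median log2 difference was 0.0074 for the 10 genes and -0.03 for all tested genes.

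St6gal1 encodes the enzyme that adds sialic acid to the galactose ends of N-glycans. Its log2 signal was 6.84 and 6.85 in control, 6.91 and 7.06 in M, 4.60 and 5.08 in LPS, and 5.77 and 5.89 in LPS+M. The order of the groups was M, control, LPS+M and LPS from highest to lowest, and no pair of groups overlapped. The log2 difference of LPS from control was -2.01 ± 0.14, a level 4.01-fold lower. After menthol, LPS+M against M, St6gal1 fell by 1.15 ± 0.14 on the log2 scale, 2.22-fold (adjusted p = 0.00163). With LPS present, menthol went with a 1.98-fold higher signal, as LPS+M exceeded LPS by 0.99 ± 0.14 on the log2 scale (adjusted p = 0.00233). Without LPS, M exceeded control by 0.14 ± 0.14 and was not called (adjusted p = 0.542, 95% interval -0.19 to 0.47). St6gal1 was still 2.02-fold lower in LPS+M than in control (log2 difference -1.02 ± 0.14, adjusted p = 0.00133). Apart from LPS+M against M, these comparisons share the LPS or control arrays with the value that led to the choice. Their p-values are descriptions. The 2 LPS arrays differed by 0.48, the widest gap of this gene within a group. A second probe set of St6gal1 lay near the bottom of the scale on all arrays, at 2.26 to 2.29, and could show no change.

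**Figure D1:**
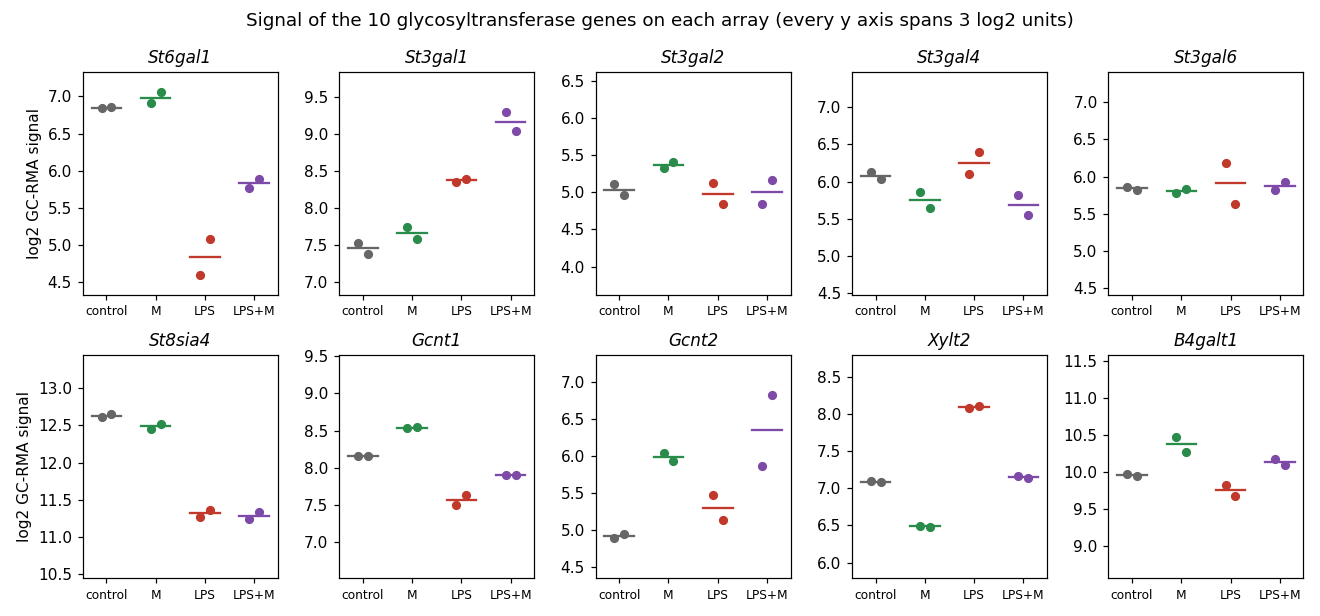
Log2 GC-RMA signal (y axis, each panel spanning 3 log2 units) of the highest probe set of each of the 10 genes in the 4 groups (x axis). Points are the 2 arrays of a group and the line is their mean. St6gal1, St8sia4 and Gcnt1 sit lowest in the LPS or LPS+M arrays, whereas Xylt2 sits highest in LPS and lowest in M.

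St3gal1 encodes the enzyme that caps core 1 O-glycans with sialic acid. Its log2 signal was 7.54 and 7.38 in control, 7.74 and 7.58 in M, 8.36 and 8.40 in LPS, and 9.29 and 9.04 in LPS+M. The groups followed in that order without overlap, so the arrays with both agents were the highest. St3gal1 rose by 0.92 ± 0.10 with LPS against control (1.89-fold, adjusted p = 0.000672) and by 1.51 ± 0.10 with LPS+M against M (2.84-fold, adjusted p = 8.01e-05). It also rose by 0.79 ± 0.10 in LPS+M against LPS (1.73-fold, adjusted p = 0.00142), while M exceeded control by 0.20 ± 0.10 and was not called (adjusted p = 0.197). Between LPS+M and control the change was 3.27-fold (log2 difference 1.71 ± 0.10, adjusted p = 1.96e-05). Its second probe set stayed between 2.29 and 2.33 on all arrays. With the 2 probe sets averaged, the log2 difference was 0.46 in LPS against control and 0.39 in LPS+M against LPS, and neither was called.

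St8sia4 encodes a polysialyltransferase, which builds long chains of sialic acid on a few carrier proteins. Its log2 signal was 12.61 and 12.65 in control, 12.46 and 12.52 in M, 11.27 and 11.36 in LPS, and 11.24 and 11.33 in LPS+M. The arrays with LPS were all lower than those without it, the LPS and LPS+M arrays overlapped, and the M arrays lay just below the control arrays. St8sia4 fell by 1.32 ± 0.07 with LPS against control (2.49-fold, adjusted p = 1.3e-05) and by 1.20 ± 0.07 with LPS+M against M (2.3-fold, adjusted p = 2.55e-05). LPS+M differed from LPS by -0.03 ± 0.07 (adjusted p = 0.784), with a 95% interval from -0.18 to 0.13. M differed from control by -0.14 ± 0.07 (adjusted p = 0.169). A second probe set above the filter was 5.64 and 6.33 in control, 5.63 and 5.68 in M, 5.00 and 5.04 in LPS, and 5.10 and 5.28 in LPS+M. In the LPS arrays it differed from control by -0.96 ± 0.22 on the log2 scale, but did not pass in the fit over single probe sets (adjusted p = 0.0816).

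The other 3 members of the ST3GAL group moved little. St3gal4, which sialylates N-glycans and selectin ligands, had log2 signals of 6.12 and 6.04 in control, 5.85 and 5.65 in M, 6.10 and 6.40 in LPS, and 5.82 and 5.55 in LPS+M. The arrays with menthol were lower than those without it. The log2 difference of LPS+M from LPS was -0.56 ± 0.13 (adjusted p = 0.0147), just under the 1.5-fold minimum, and that of M from control was -0.33 ± 0.13 (adjusted p = 0.11). The first of these was called without the first LPS array (-0.71), and without the first LPS+M array (-0.70). LPS differed from control by 0.17 ± 0.13 (adjusted p = 0.399), and those arrays overlapped. St3gal2, which sialylates O-glycans and gangliosides, had 5.11 and 4.97 in control, 5.33 and 5.40 in M, 5.12 and 4.84 in LPS, and 4.85 and 5.17 in LPS+M, close to the filter throughout. Only the M arrays stood clear of the rest, and M differed from control by 0.33 ± 0.13 (adjusted p = 0.107). St3gal6, an enzyme of selectin ligand synthesis, had 5.86 and 5.82 in control, 5.78 and 5.83 in M, 6.19 and 5.63 in LPS, and 5.82 and 5.92 in LPS+M. The groups overlapped in all 6 comparisons, the LPS arrays were 0.55 apart, and the 95% interval of LPS against control was -0.29 to 0.43. A second St3gal6 probe set above the filter differed by 0.44 ± 0.06 between LPS and control (adjusted p = 0.0195) and by -0.37 ± 0.06 between LPS+M and LPS (adjusted p = 0.0279), both under 1.5-fold.

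**Figure D2:**
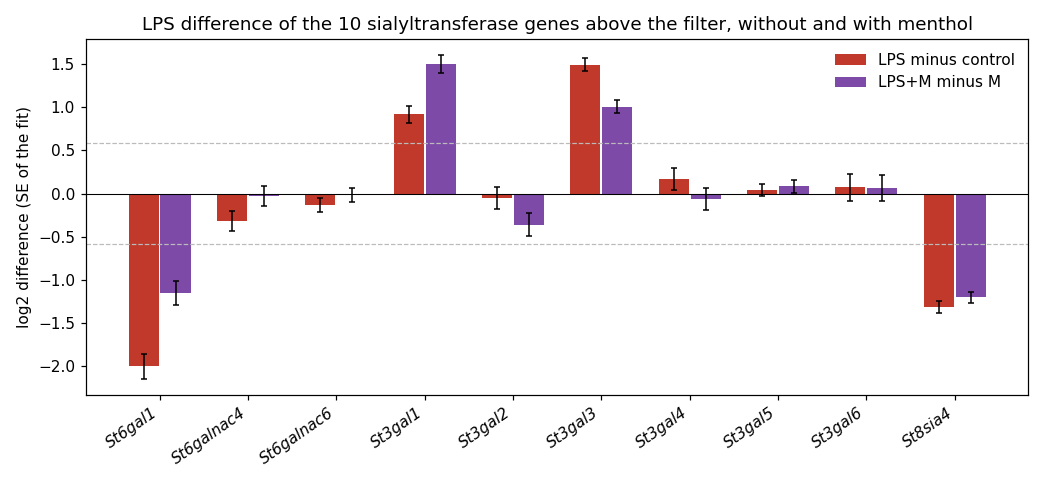
Log2 difference (y axis, bars from 0, whiskers the SE of the fit, dashed lines 1.5-fold) of LPS from control and of LPS+M from M for the 10 sialyltransferase genes above the filter (x axis). In both comparisons St6gal1 and St8sia4 lie below the lower dashed line and St3gal1 and St3gal3 above the upper one.

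Gcnt1 encodes the enzyme that adds the core 2 branch to O-glycans, the arm on which many selectin ligands are built. Its log2 signal was 8.16 and 8.16 in control, 8.53 and 8.54 in M, 7.49 and 7.64 in LPS, and 7.90 and 7.90 in LPS+M. All 4 groups were apart, with M the highest and LPS the lowest, and the log2 difference of LPS from M was -0.97 ± 0.07, 1.96-fold. Gcnt1 fell by 0.60 ± 0.07 with LPS against control (1.51-fold, adjusted p = 0.000717), just past the fold minimum, and by 0.64 ± 0.07 with LPS+M against M (1.55-fold, adjusted p = 0.000719). The first of these was not called without the first LPS array, where the log2 difference was -0.52. Menthol went with a higher Gcnt1 signal in both settings, by 0.38 ± 0.07 in M against control (adjusted p = 0.00699) and by 0.34 ± 0.07 in LPS+M against LPS (adjusted p = 0.00854), each under 1.5-fold and not called. The second probe set of Gcnt1 above the filter was 6.70 and 6.47 in control, 6.96 and 7.03 in M, 4.84 and 5.40 in LPS, and 5.76 and 6.11 in LPS+M. It had the same order of groups, and differed by -1.46 ± 0.22 between LPS and control (adjusted p = 0.0216) and by 0.81 ± 0.22 between LPS+M and LPS (adjusted p = 0.0981). All Gcnt1 comparisons given a p-value here share the LPS or M arrays with the value that led to the choice. Those p-values are descriptions.

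**Figure D3:**
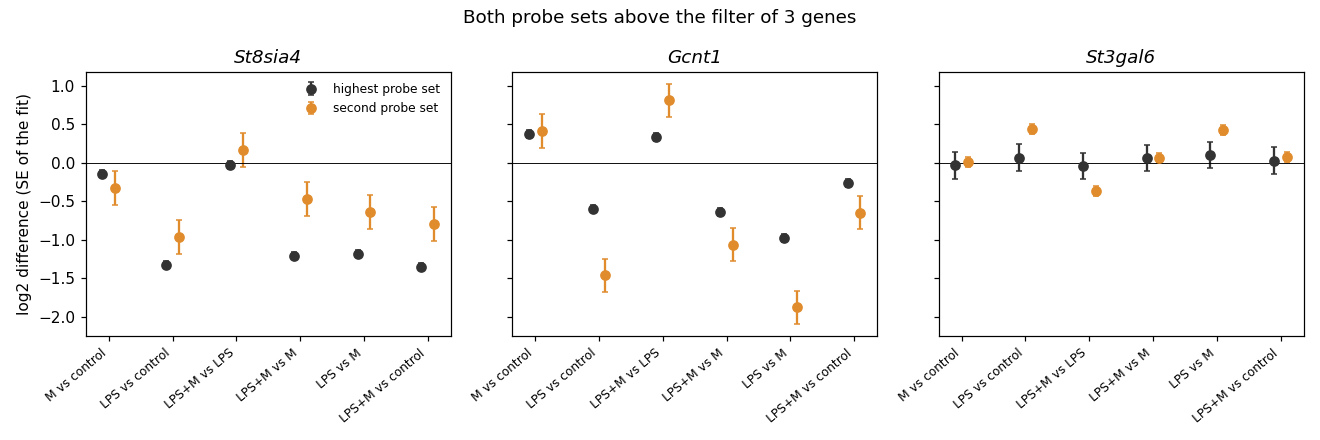
Log2 difference (y axis, whiskers the SE) in the 6 comparisons (x axis) for both probe sets above the filter of St8sia4, Gcnt1 and St3gal6, from a fit of every probe set by itself. In LPS against control the second probe set of Gcnt1 reads -1.46 and the first -0.60, while in St8sia4 they read -0.96 and -1.32.

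Gcnt2, which adds branches to chains of repeated lactosamine, was the member with the widest scatter between arrays. Its log2 signal was 4.90 and 4.95 in control, 6.05 and 5.93 in M, 5.47 and 5.14 in LPS, and 5.87 and 6.82 in LPS+M. The arrays with menthol were all above those without it, and the LPS+M arrays were 0.95 apart. Gcnt2 rose by 1.06 ± 0.26 in M against control (2.09-fold, adjusted p = 0.0254) and by 1.04 ± 0.26 in LPS+M against LPS (2.05-fold, adjusted p = 0.022). The call in M against control was lost on leaving out any 1 of the 4 arrays compared, with log2 differences of 1.01 to 1.12. The call in LPS+M against LPS was lost without the second LPS array (0.87) and without the second LPS+M array (0.56). LPS differed from control by 0.38 ± 0.26 (adjusted p = 0.353). The other 7 probe sets of Gcnt2 had means of 1.57 to 3.59, all below the filter.

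B4galt1, which adds the galactose that sialyltransferases then cap, had log2 signals of 9.97 and 9.95 in control, 10.47 and 10.27 in M, 9.82 and 9.68 in LPS, and 10.17 and 10.10 in LPS+M. The groups did not overlap, and the arrays with menthol were the highest. M exceeded control by 0.41 ± 0.08 (adjusted p = 0.0118) and LPS+M exceeded LPS by 0.38 ± 0.08 (adjusted p = 0.0125), both under 1.5-fold and not called. LPS differed from control by -0.21 ± 0.08 (adjusted p = 0.125) and LPS+M from M by -0.24 ± 0.08 (adjusted p = 0.106). In the comparison of LPS with M, B4galt1 fell by 0.62 ± 0.08 (1.54-fold, adjusted p = 0.000932). That call was lost without the first M array (-0.52) and without the second LPS array (-0.55).

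Xylt2 encodes a xylosyltransferase that starts glycosaminoglycan chains on the core proteins of proteoglycans. Its log2 signal was 7.10 and 7.08 in control, 6.50 and 6.48 in M, 8.08 and 8.11 in LPS, and 7.16 and 7.13 in LPS+M. The arrays of a group lay within 0.03 of each other, the closest of the 10 genes, and no groups overlapped. The log2 difference of M from control was -0.60 ± 0.06, 1.52-fold lower. Xylt2 rose by 1.00 ± 0.06 in LPS against control (adjusted p = 2.61e-05), and LPS+M exceeded M by 0.66 ± 0.06 (1.58-fold, adjusted p = 0.000259). In LPS+M against LPS, Xylt2 fell by 0.95 ± 0.06 (1.93-fold, adjusted p = 6.68e-05). LPS+M and control differed by 0.06 ± 0.06 (adjusted p = 0.481), with a 95% interval of -0.08 to 0.19. Apart from LPS+M against LPS, these comparisons share the control or M arrays with the value that led to the choice. Their p-values are descriptions. Xylt2 had a single probe set.

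**Figure D4:**
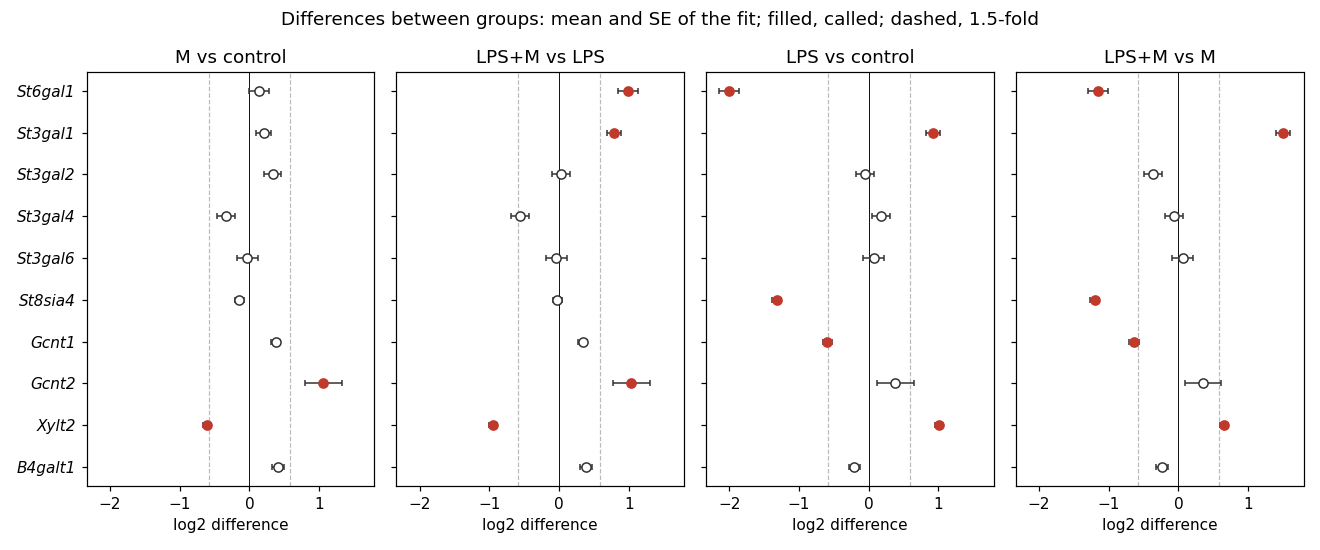
Log2 difference (x axis, mean and SE of the fit over 8 arrays) of each of the 10 genes (rows) in 4 comparisons. Filled points were called, open points were not, and dashed lines mark 1.5-fold. Gcnt2 lies at 1.06 in M against control and 1.04 in LPS+M against LPS, and Xylt2 at -0.60, a value that led to the choice, and -0.95.

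In M against control, Gcnt2 was called higher and Xylt2 lower, 1 gene each way, beside 3.01% of all tested genes called higher and 1.54% lower. The Xylt2 value was among those that led to the choice, so nothing is read from its count. In LPS+M against LPS, St6gal1, St3gal1 and Gcnt2 were called higher and Xylt2 lower, 3 and 1 genes, beside 4.22% higher and 2.49% lower. The St6gal1 call reuses the LPS arrays of a value that led to the choice, so nothing is read from it. The medians of the 10 genes were 0.17 and 0.18 in these comparisons, and those of all tested genes 0.02 and 0.03. In LPS+M against M, 2 genes were called higher (St3gal1 and Xylt2) and 3 lower (St6gal1, St8sia4 and Gcnt1), beside 2.39% and 1.77% of all tested genes. The same 5 genes were called in the same directions in LPS against control, which shares no arrays with LPS+M against M. For St6gal1, Gcnt1 and Xylt2, the values that led to the choice used arrays of these comparisons. Nothing is therefore read from the match of these genes.

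The remaining comparisons reuse the arrays above. In LPS against M, 2 genes were higher (St3gal1 and Xylt2) and 4 lower (St6gal1, St8sia4, Gcnt1 and B4galt1), beside 4.59% and 6.7% of all tested genes. The median was -0.50 against -0.06 over all tested genes. The Gcnt1 value, which led to the choice, enters the lower count and the median, so nothing is read from these. St6gal1 differed by -2.14 ± 0.14 between LPS and M, and Xylt2 by 1.61 ± 0.06. In LPS+M against control, 2 genes were higher (St3gal1 and Gcnt2) and 2 lower (St6gal1 and St8sia4), beside 5.53% and 4.3%. Gcnt2 rose 2.67-fold there (log2 difference 1.42 ± 0.26, adjusted p = 0.00463) and St8sia4 fell by 1.35 ± 0.07 (2.54-fold, adjusted p = 8.69e-06).

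Whether the menthol difference changed with LPS was tested as an interaction, the LPS+M minus LPS difference less the M minus control difference. None of the 10 genes was called by limma, and 3 had an unadjusted p under 0.05. Over all tested genes 0.0337% were called higher and 0.202% lower. The largest of the 3 was St6gal1, at 0.85 ± 0.20, followed by St3gal1 at 0.59 ± 0.14 (adjusted p = 0.2) and Xylt2 at -0.34 ± 0.08. The interactions of St6gal1 and Xylt2 contain differences that led to the choice, so these values are given as descriptions. Without the second LPS array the St6gal1 interaction was 1.09. St6gal1 was called in LPS+M against LPS and not in M against control, but the menthol differences were thus not shown to differ by the interaction over all arrays.

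The other sialyltransferases were read from a list of all 20 genes of the family on the array, written by enzyme role. The other 4 that passed the filter were St3gal3, St3gal5, St6galnac4 and St6galnac6, and the remaining 10 genes lay below it with means of 2.17 to 3.05. St3gal3, which sialylates N-glycans, had log2 signals of 7.52 and 7.50 in control, 7.33 and 7.46 in M, 8.95 and 9.07 in LPS, and 8.44 and 8.37 in LPS+M. It was highest in LPS and overlapped in no comparison. It rose 2.82-fold with LPS (SE 0.07 on the log2 scale, adjusted p = 1.24e-05) and by 1.01 ± 0.07 with LPS+M against M (adjusted p = 0.000122), and fell by 0.60 ± 0.07 in LPS+M against LPS (adjusted p = 0.00115). That last call was lost without the second LPS array (-0.54) and without the second LPS+M array (-0.57). Its second probe set had a mean of 2.16. St3gal5, the synthase of the ganglioside GM3, differed by -0.43 ± 0.07 in M against control (adjusted p = 0.00667) and by -0.38 ± 0.07 in LPS+M against LPS (adjusted p = 0.00759), both under 1.5-fold. St6galnac4 and St6galnac6, which act on O-glycans and glycolipids, were not called in any comparison, and LPS differed from control by -0.32 ± 0.12 and -0.13 ± 0.08. Of the 10 sialyltransferases tested, 2 were higher and 2 lower in LPS against control, beside 3.17% and 2.96% of all tested genes. The median log2 difference was -0.01, against -0.03 over all tested genes. The lower count includes St6gal1, whose value led to the choice. Among the 4 that are not members, 1 was higher and 0 lower.

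Gne and Nans of the synthesis pathway, Nanp, Cmas, which activates the sugar, Slc35a1, which carries it into the Golgi, and Renbp were the 6 of 8 list genes tested, and none was called in any comparison. Over these 36 values limma gave 7 with an unadjusted p under 0.05, and the methods' t-test called 0. Cmas was 11.33 and 11.40 in control and 11.32 and 11.47 in LPS, a log2 difference of 0.03 ± 0.07. Nanp had the lowest difference of the supply genes in LPS+M against control, at -0.41 ± 0.06 (adjusted p = 0.00205, under 1.5-fold). Cmah and Npl lay below the filter. Neu1, the lysosomal sialidase and the 1 of 4 sialidase genes tested, differed by -0.24 ± 0.10 between LPS and control (adjusted p = 0.137) and by 0.23 ± 0.10 between LPS+M and LPS (adjusted p = 0.133). C1galt1, which builds core 1 of O-glycans, rose by 0.63 ± 0.06 in LPS+M against LPS (1.55-fold, adjusted p = 0.000385). Its other probe sets read 0.33 and -0.09 there, and the call was lost with the mean of its probe sets (0.29). M exceeded control by 0.48 ± 0.06 (adjusted p = 0.00191), under 1.5-fold. Its chaperone C1galt1c1 was not called in any comparison.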

How the data were processed

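RNA from 8 samples of RAW 264.7 cells was amplified, labelled with biotin and hybridised to Affymetrix mouse arrays by the authors. The deposited values are log2 signals that the authors made with R (2.6.1) and GCRMA (2.10.0), per the submitters' processing notes. They were used as deposited. This method shrinks dim probe sets to a floor, so differences there are understated. Groups came from the sample labels.

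The differences were fitted with limma (3.58.1, lmFit with eBayes, under R 4.3.3) on all 8 arrays with 1 coefficient per group, 4 residual and 3.778 prior degrees of freedom. Probe sets with several symbols (932), none (9160) or of Affymetrix controls (64) were left out, and 34945 remained. P-values were adjusted by Benjamini-Hochberg over the 8908 tested genes of a comparison. The calls were also run on simulated data with independent normal noise of the fitted spread. That simulation shares the assumptions of the fit, so it cannot test them. Each gene was represented by 1 probe set, and probe sets were also fitted singly. Named are the 10 members, every tested sialyltransferase, sialic acid supply, sialidase and O-glycan core gene, and up to 3 called genes of each other list with the largest difference in a comparison described. The members and lists were chosen with earlier results of these data known, and the lists have no set test. The number of arrays limits the precision. Motifs were searched as exact letters in RefSeq promoter windows of GRCm38.p6. Neu4 and Gcnt4 were not analysed here.

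Alternatives were other filters, probe set rules, fold minimums and scalings, the methods' t-test, unadjusted limma p-values, eBayes with trend and robust options, fitting the compared groups only, the replicate number as a block, and leaving out each array.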

Additional observations from a re-analysis of the deposited data

How the results depend on the processing

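Over the 1384 alternative values of the 10 genes, none reversed, 61 lost and 23 gained a call, and 30 uncalled values changed sign. For the 28 other genes that the naming rule covers, these were 3983 values, 0 reversed, 113 lost and 54 gained. With the methods' t-test and Benjamini-Hochberg adjustment, 0 of the 10 genes were called in each of the 6 comparisons. Unadjusted, that t-test called 3 in LPS against control and 1 in LPS+M against LPS. St6gal1 and Gcnt1 lost their calls in the first comparison, and St6gal1, St3gal1 and Gcnt2 in the second. In LPS+M against LPS the unadjusted p of that t-test was 0.0932 for St3gal1 and 0.246 for Gcnt2. With the mean of all probe sets, where 6 of the 10 genes passed the filter, 3 were called in LPS against control, 1 in LPS+M against LPS, 2 in LPS+M against control and 1 in M against control. With a 2-fold minimum 3 were called in LPS against control, 3 in LPS against M, 3 in LPS+M against M, 1 in LPS+M against LPS and 1 in M against control. Apart from the ranges below, counts over all tested genes are not given for each alternative. The counts of the 10 genes therefore show only how calls depend on the setting. With no fold minimum 7 were called in LPS+M against LPS and 4 in M against control. In M against control, 1 gene was called with every probe set tested, with no filter and with means above 6, and 1 to 2 on leaving out single arrays. The interaction had 2 genes by limma's unadjusted p with the fold minimum, and 0 to 1 on leaving out single arrays. Over all tested genes the same alternatives gave 0 to 1934 calls in M against control, 0 to 1935 in LPS against control, 0 to 2560 in LPS+M against LPS, 0 to 1268 in LPS+M against M, 0 to 3450 in LPS against M, 0 to 3085 in LPS+M against control and 1 to 124 for the interaction, the lowest of the 6 comparisons by that t-test and the highest with no fold minimum. Arrays of the same replicate number deviated together at correlations of only -0.12 to 0.19, and no pairing was used in the main fit. The labels do not say whether the number marks a shared culture or batch, and these correlations cannot exclude it. With the replicate block, 2 genes were called in M against control and 5 in LPS against control, as without it, and it changed no other count of the 10 genes. Quantile normalization ended the Gcnt1 call in LPS against control (-0.58) and gave St3gal4 a call in LPS+M against LPS (-0.60). Signal near the floor of the scale limits the 14 probe sets under the filter. The causes of these changes were not tested.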

Other observations

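The enzymes around these genes were read from lists written by enzyme role: 82 further genes that passed the filter. In M against control 1 of the 82 was called higher and 2 lower, beside 3.01% and 1.54% of all tested genes, and in LPS against control 4 were higher and 1 lower, beside 3.17% and 2.96%. In LPS+M against LPS 3 were higher and 4 lower, beside 4.22% and 2.49%, and in LPS+M against M 3 were higher and 0 lower, beside 2.39% and 1.77%. In LPS against M 8 were higher and 4 lower, beside 4.59% and 6.7%, and in LPS+M against control 7 were higher and 3 lower, beside 5.53% and 4.3%. No list is called particular from these counts.

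Galnt3, which starts O-glycans by adding GalNAc, had log2 signals of 6.43 and 6.43 in control, 7.55 and 7.95 in M, 6.09 and 6.29 in LPS, and 7.84 and 8.08 in LPS+M. The arrays with menthol were all higher than those without it. It rose by 1.32 ± 0.14 in M against control (2.50-fold, adjusted p = 0.00103) and by 1.77 ± 0.14 in LPS+M against LPS (3.40-fold, adjusted p = 0.000192). Its other probe sets had means of 2.61 and 2.12. Galnt11, a second enzyme of this step, fell by 0.60 ± 0.10 in M against control (adjusted p = 0.00637) and by 0.59 ± 0.10 in LPS+M against LPS (adjusted p = 0.00525). The first of these calls was lost without the first M array (-0.47), and the second without the second LPS array (-0.47) or the second LPS+M array (-0.58).

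B4galt6, a lactosylceramide synthase, was 12.58 and 12.59 in control, 11.67 and 11.79 in M, 12.50 and 12.35 in LPS, and 11.50 and 11.60 in LPS+M. It was lower in every array with menthol. It fell by 0.85 ± 0.08 in M against control (1.80-fold, adjusted p = 0.000568) and by 0.87 ± 0.08 in LPS+M against LPS (1.83-fold, adjusted p = 0.000324), and its other 3 probe sets were lower in both as well, by -0.83 to -1.07. Hs6st1, a heparan sulfate sulfotransferase, rose by 0.94 ± 0.14 in LPS+M against LPS (1.92-fold, adjusted p = 0.00253), and M differed from control by 0.32 ± 0.14.

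Of the mannosidases that trim N-glycans, Man1a rose by 0.66 ± 0.09 with LPS (adjusted p = 0.00154) and fell by 0.75 ± 0.09 in LPS+M against LPS (adjusted p = 0.000897), whereas its second probe set read 0.68 and -0.02 in these comparisons. Man1c1 fell by 0.86 ± 0.10 with LPS (adjusted p = 0.000782). Among receptors of sialylated ligands, Pilrb1, an activating receptor, was 6.85 and 7.26 in control, 6.96 and 7.07 in M, 8.50 and 8.58 in LPS, and 8.14 and 8.15 in LPS+M. The arrays with LPS were all higher. It rose by 1.48 ± 0.12 with LPS (2.79-fold, adjusted p = 0.000155), and the inhibitory receptor Pilra rose by 0.75 ± 0.06 (adjusted p = 0.000165). Cd33, a Siglec and the third receptor tested, had the opposite sign in LPS against control, at -0.58 ± 0.09, just under 1.5-fold, and fell by 0.85 ± 0.09 in LPS against M (adjusted p = 0.000282).

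The other called genes of the lists were called in LPS against M or in LPS+M against control. In LPS against M, Extl3, which acts in heparan sulfate synthesis, fell by 0.89 ± 0.07 (adjusted p = 5.42e-05). The protein O-fucosyltransferase gene Pofut2 rose by 0.60 ± 0.11 there, a call lost without the second M array (0.46), without the second LPS array (0.51) or on averaging its probe sets (0.55). Gorasp1, a Golgi stacking protein, rose by 0.61 ± 0.08, a call lost without the first M array (0.55) or the second LPS array (0.57). In LPS+M against control, Golgb1, the large Golgi membrane protein giantin, rose by 0.90 ± 0.07 (adjusted p = 9.84e-05). Mgat5, a branching enzyme of N-glycans, fell by 0.64 ± 0.08 there, a call lost without the first LPS+M array (-0.58) or on averaging its probe sets (-0.45). Fut4, a fucosyltransferase of selectin ligands, rose by 0.74 ± 0.19, a call lost without the first control array (0.55) or the second LPS+M array (0.47).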
